A study of Mus musculus with 21 samples.

Results

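Muscle breaks down its own proteins along 2 routes, and the 10 genes described here are parts of both. Trim63, Fbxo32, Trim54 and Trim55 encode muscle ubiquitin ligases or their subunits, Foxo1 and Foxo3 encode the transcription factors known to drive atrophy genes, and Sqstm1, Map1lc3b, Gabarapl1 and Bnip3 encode autophagy and mitophagy proteins. The genes were chosen by name, with earlier results of these data known. Each was read from the probe set that is annotated to that gene alone and has the highest mean log2 value over the 21 arrays. All 10 passed the filter on low values, and they are 10 of the 11384 genes tested and of the 19937 genes with such a probe set.

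The samples were total RNA of left ventricle from mice aged 9 to 13 weeks, killed 4 days after their injections and hybridised to Affymetrix expression arrays. Mice carrying Tg(αMHC-MerCreMer), here MerCreMer, express a tamoxifen-activated Cre recombinase under the αMHC promoter, which is active in cardiomyocytes; the labels name no floxed allele. The MerCreMer groups were 1 control injection, 1 injection of tamoxifen, 4 control injections and 4 injections of tamoxifen, with 3 arrays in each. The wild-type groups were 4 control injections, with 6 arrays, and 4 injections of tamoxifen, with 3 arrays. Injections were given on consecutive days into the peritoneum, tamoxifen at 40 mg/kg, and what the control injection held is not given in the sources used here. Sexes were mixed: males numbered 1 in every group of 3 and 3 among the wild-type controls. The labels number the replicates but do not say that each was a separate animal, so p-values measure only the spread between these samples.

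As background, the ubiquitin-proteasome route marks single proteins for destruction: an E3 ligase binds a substrate and attaches ubiquitin to it, and the proteasome then degrades the protein. MuRF1, the product of Trim63, and atrogin-1, the product of Fbxo32, are the classical markers of skeletal muscle atrophy and are both known targets of FoxO factors, which the insulin and AKT pathway keeps out of the nucleus. Autophagy wraps larger cargo, such as aggregates and mitochondria, in a membrane carrying LC3 and GABARAP proteins and delivers it to the lysosome. The heart uses both routes to turn over sarcomeres and mitochondria. A messenger RNA level shows neither ligase activity nor autophagic flux.

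The arrays had similar medians, from 4.57 to 4.72 on the log2 scale. The MerCreMer 4 tamoxifen arrays stood apart in how much they differed from each other. Their mean residual variance over the genes tested was 0.106, against 0.0153 to 0.0221 in the other groups, and their correlations with each other ran from 0.918 to 0.974, while the lowest within any other group was 0.982. All comparisons below come from 1 limma fit of the 6 groups with sex as a term, adjusted by the Benjamini-Hochberg method over all genes tested. That fit gives every group the same spread, so its errors are too small for the MerCreMer 4 tamoxifen group and too large for the others.

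After 4 tamoxifen injections in MerCreMer mice, Sqstm1 was higher than after 4 control injections, and Trim63 and Foxo3 were lower. The other 7 genes did not pass the test. In the limma fit 3 of the 10 genes (30%) were called at an adjusted p under 0.05, beside 23.3% of all genes tested. By direction 1 of the 10 was higher, beside 13.9% of all genes, and 2 were lower, beside 9.41%. Over all genes this split of 1583 higher and 1071 lower became 1310 and 1433 when each array was centred on its median and 1365 and 1314 when the arrays were quantile normalised again. The directions of Sqstm1, Trim63 and Foxo3 and their calls held under both scalings. The share called is thus near the background, and the median change of the 10 genes was −0.09 on the log2 scale against 0.01 for all genes. None of the 3 calls held when only the 6 arrays compared were fitted, where 18 genes in all were called, or when each group was weighted by its own variance, where 958 were. With weights by array Sqstm1 and Trim54 were called, and the median of the 10 genes turned to 0.08. Without the filter on low values Foxo3 and Sqstm1 were called but Trim63 was not, beside 11.3% of all genes then tested. On female arrays alone Trim63 was the only call.

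**Figure D1:**
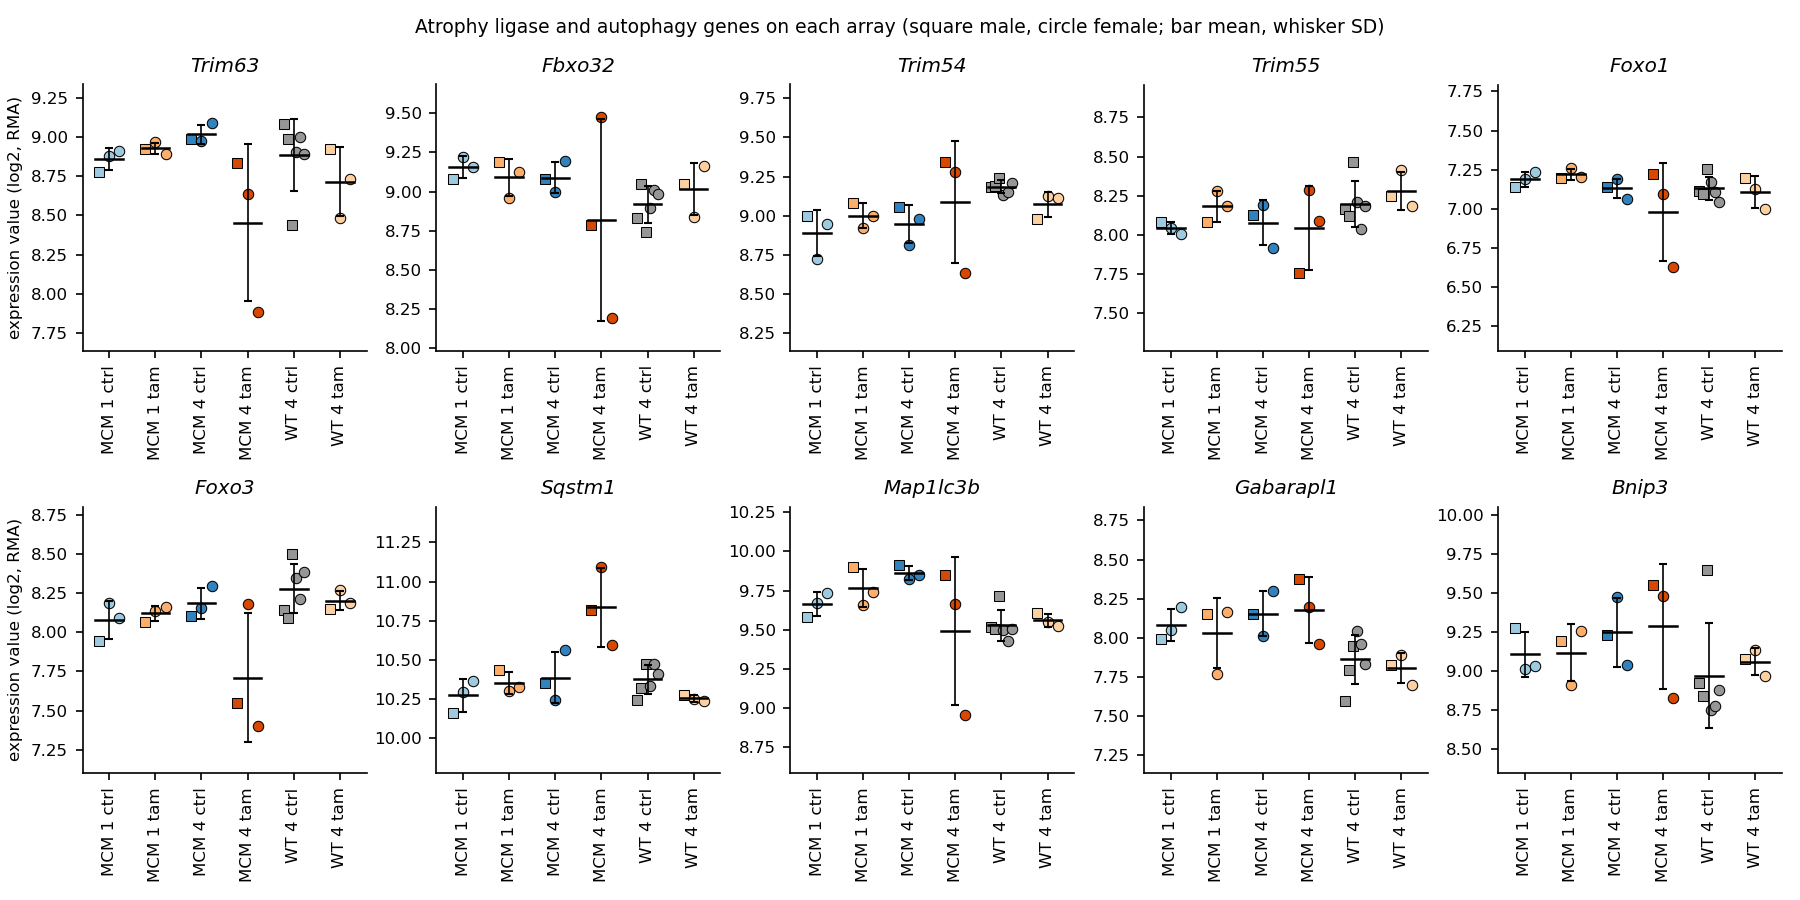
Expression value (log2, RMA; vertical axis) of each gene on each of the 21 arrays, in the 6 groups, where MCM is MerCreMer, WT wild type, ctrl control and tam tamoxifen. Squares are male and circles female mice, bars are group means and whiskers SD, and all panels span the same range; the MerCreMer 4 tamoxifen arrays lie far apart for most genes, and for Sqstm1 all 3 lie above the other 18 arrays.

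Among the ligases, Trim63 encodes the RING-finger ligase of the sarcomere that marks thick-filament proteins and troponin I. Its log2 values were 8.84, 8.63 and 7.88 on the MerCreMer 4 tamoxifen arrays and 8.99, 8.98 and 9.09 on the MerCreMer 4 control arrays. The groups did not overlap, as for 27.9% of all genes tested, but 1 tamoxifen array lay far below the other 2. Trim63 fell by 0.57 (SE 0.186), or 1.48-fold, with a limma adjusted p of 0.0353. Without that lowest array, replicate 3, the change was −0.28 with an adjusted p of 0.212. The call was also lost when any 1 of the 3 control arrays was left out, with adjusted p from 0.0662 to 0.111. It was kept in 7 of 12 other settings. Among the wild-type controls, Trim63 ranged from 8.44 to 9.09 with a median of 8.95. The value of 8.44 came from 1 array, replicate 3, and the next was 8.89, above all 3 MerCreMer 4 tamoxifen values.

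Trim63 lies on chromosome 4 at 134315120 to 134329629 in GRCm38.p6, on the plus strand. The 250 bases before its annotated start (RefSeq, chr4:134314870-134315119, plus strand) are shown because MuRF1 is a textbook FoxO target and Foxo3 moved in the same comparison. The capitals mark the letters TGTTTAC, the reverse complement of the FoxO core GTAAACA, from 194 to 188 bases before the start.
Trim63: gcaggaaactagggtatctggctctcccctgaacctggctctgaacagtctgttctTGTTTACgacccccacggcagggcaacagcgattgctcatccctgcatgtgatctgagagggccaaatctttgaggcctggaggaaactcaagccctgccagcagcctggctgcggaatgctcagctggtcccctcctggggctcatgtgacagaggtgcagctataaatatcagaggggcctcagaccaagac
Either strand of GTAAACA was present in 3.17% of the 32851 promoter windows of this length, and among the 8 of the 10 genes with a window only Trim63 held it. Fbxo32 and Trim55 had no window and were not searched. The match describes letters and does not show binding.

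Fbxo32 encodes atrogin-1, the F-box subunit that brings substrates to an SCF ligase. Its MerCreMer 4 tamoxifen values were 8.78, 9.48 and 8.19, against 9.08, 9.00 and 9.19 after 4 control injections. The 3 tamoxifen arrays thus held both the highest and the lowest of the 21 values, with an SD of 0.643 against 0.0974 in the controls. The change of −0.27 (SE 0.199) did not pass the test, with a limma adjusted p of 0.339 and a 95% interval from −0.69 to 0.15. With the highest array, replicate 2, left out it was −0.61 with an adjusted p of 0.00363. With the lowest array, replicate 3, left out it was 0.06, so both the call and the sign of the change in Fbxo32 rest on single arrays.

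Trim54 and Trim55 encode MuRF3 and MuRF2, the relatives of MuRF1 that bind microtubules and the sarcomere. Trim54 read 9.34, 9.28 and 8.64 on the MerCreMer 4 tamoxifen arrays and 9.05, 8.81 and 8.98 on the 4 control arrays. For this gene 2 arrays lay above and 1 below all 3 controls, and the change was 0.14 (SE 0.125; limma adjusted p 0.450). Without the low array, replicate 3, it was 0.35 with an adjusted p of 0.00654. Trim55 read 7.75, 8.29 and 8.09 against 8.13, 8.19 and 7.91, groups that overlapped, with a change of −0.03 and a 95% interval from −0.29 to 0.22. Of the 3 MuRF genes only Trim63 passed the test, and differences between them were not tested.

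Of the FoxO factors, Foxo3 encodes the member best known for driving both ligase and autophagy genes in muscle. It read 7.55, 8.18 and 7.40 on the MerCreMer 4 tamoxifen arrays and 8.11, 8.15 and 8.30 on the 4 control arrays. Here 2 arrays were the lowest of all 21 and the remaining one lay among the controls. Foxo3 fell by 0.47 (SE 0.139), or 1.39-fold, with a limma adjusted p of 0.0208. The adjusted p was 0.117 without tamoxifen replicate 3, where the change was −0.29, and 0.0514 without tamoxifen replicate 1. It was 0.0585 and 0.0737 without control replicates 1 and 3. On the 2 female arrays of each group alone, the change was −0.43 with an adjusted p of 0.144. The call of Foxo3 was kept in 8 of 12 other settings.

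Foxo1 encodes the other main FoxO factor of muscle, which also acts in insulin signalling and metabolism. Its values were 7.22, 7.09 and 6.63 after 4 tamoxifen injections and 7.14, 7.19 and 7.06 after 4 control injections in MerCreMer mice. The first 2 tamoxifen arrays were close to the controls and the last was the lowest of all 21. The change of −0.15 (SE 0.106) did not pass the test, with a limma adjusted p of 0.320 and a 95% interval from −0.37 to 0.07.

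Among the autophagy genes, Sqstm1 encodes p62, the receptor that links ubiquitinated cargo to LC3 and is itself degraded with it. Its log2 values were 10.82, 11.10 and 10.59 on the MerCreMer 4 tamoxifen arrays and 10.35, 10.24 and 10.57 on the 4 control arrays. The lowest tamoxifen value lay just above the highest of the other 18 arrays, so the groups did not overlap. Sqstm1 rose by 0.45 (SE 0.109), or 1.36-fold, with a limma adjusted p of 0.00719. The call held with each of the 21 arrays left out in turn, with changes from 0.32 to 0.58 and adjusted p up to 0.0419. It was lost in 3 of 12 other settings, with adjusted p of 0.313 when only the arrays compared were fitted, 0.0733 with weights by group and 0.0778 on female arrays alone. In order of level, the MerCreMer 4 tamoxifen mean of 10.84 ± 0.253 (SD, n = 3) came first and lay 1.78 of the larger SD above the next, the MerCreMer 4 control mean of 10.39 ± 0.164 (SD, n = 3). The other 5 group means ran from 10.25 to 10.39, with every neighbour closer than 1 SD.

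Sqstm1 lies on chromosome 11 at 50200152 to 50210820 in GRCm38.p6, on the minus strand. The 250 bases before its annotated start (RefSeq, chr11:50210821-50211070, minus strand) are shown because it was the called member that kept its call with each array left out. p62 is a known target of NRF2, which binds antioxidant elements, and of TFEB, which binds E-box-like letters.
Sqstm1: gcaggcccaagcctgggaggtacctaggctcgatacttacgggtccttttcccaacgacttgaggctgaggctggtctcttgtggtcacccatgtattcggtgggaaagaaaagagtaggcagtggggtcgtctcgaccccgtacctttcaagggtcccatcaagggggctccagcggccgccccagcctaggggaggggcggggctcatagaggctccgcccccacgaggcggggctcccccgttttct
No letters are in capitals, since none of the motifs searched on both strands occurred in this window. The motifs were the FoxO core GTAAACA, the E-box CACGTG in 6.02% of all windows, the longer TFEB form GTCACGTG, which contains the E-box, in 1.85%, and the antioxidant element TGACNNNGC in 10.2%.

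Map1lc3b encodes LC3B, the ubiquitin-like protein that is attached to the autophagosome membrane. The MerCreMer 4 tamoxifen arrays read 9.85, 9.67 and 8.96, against 9.91, 9.83 and 9.85 after 4 control injections. The first tamoxifen array matched the controls and the last was the lowest of all 21. The change of −0.37 (SE 0.139) had a limma adjusted p of 0.0601 and did not pass, with a 95% interval from −0.66 to −0.08. It did pass, at −0.41, when each array was centred on its median (adjusted p 0.0296) or quantile normalised again (0.0411), and it was −0.12 without tamoxifen replicate 3.

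Gabarapl1 encodes a GABARAP-type relative of LC3 and is itself a known FoxO3 target. Its values of 8.38, 8.19 and 7.96 on the MerCreMer 4 tamoxifen arrays spread somewhat more widely around the same level than the control values of 8.15, 8.01 and 8.30. The change was 0.02 (limma adjusted p 0.920), with a 95% interval from −0.25 to 0.30.

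Bnip3 encodes a mitochondrial outer membrane protein, a receptor for mitophagy that hypoxia is known to induce. It read 9.55, 9.48 and 8.83 after 4 tamoxifen injections and 9.23, 9.47 and 9.04 after 4 control injections in MerCreMer mice. Again 2 arrays were above the highest control and 1 was below the lowest, and the change was 0.04 (limma adjusted p 0.907), with a 95% interval from −0.36 to 0.44. The 250 bases before the annotated start of Bnip3 (RefSeq, GRCm38.p6, chr7:138909507-138909756, minus strand) are shown because they hold the only other motif match, the E-box CACGTG in capitals, from 108 to 103 bases before the start.
Bnip3: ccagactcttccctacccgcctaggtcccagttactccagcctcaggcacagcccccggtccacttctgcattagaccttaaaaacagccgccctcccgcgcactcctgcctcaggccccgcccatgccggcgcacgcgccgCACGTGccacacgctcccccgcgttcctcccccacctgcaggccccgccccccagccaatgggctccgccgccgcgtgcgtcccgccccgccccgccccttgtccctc
For this gene the test called no change, and the E-box stands in 6.02% of all windows.

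**Figure D2:**
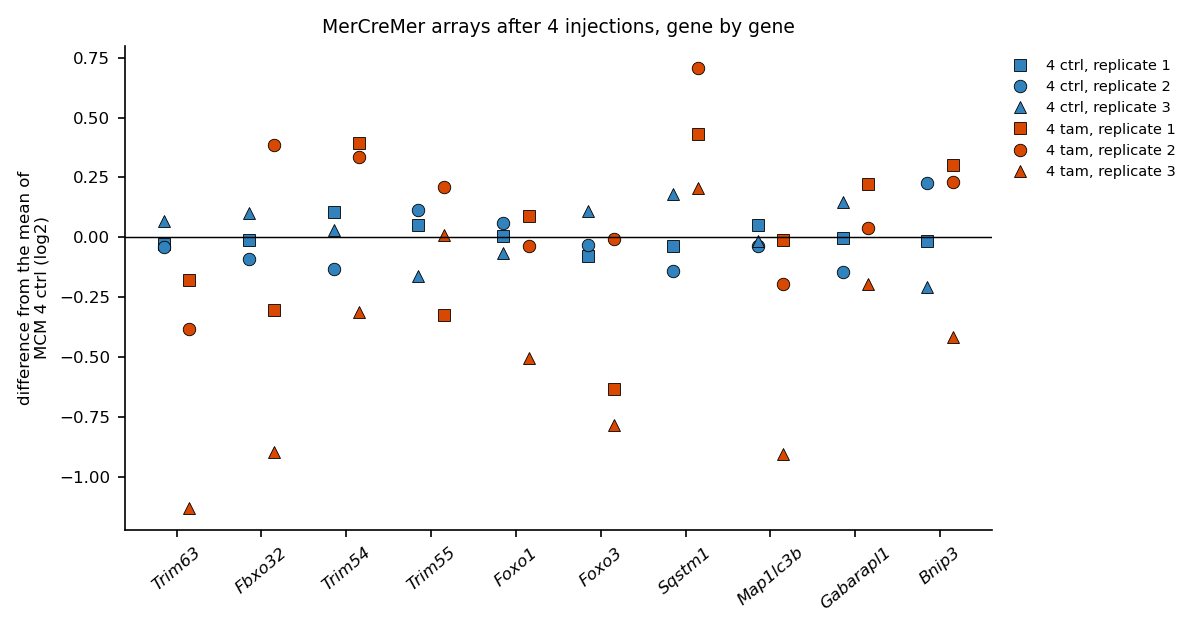
Difference of each MerCreMer array after 4 injections from the mean of the 4 control arrays (log2, vertical axis), gene by gene, with blue for control and orange for tamoxifen and a symbol for each replicate. Tamoxifen replicate 3 (orange triangles) is the lowest of the 6 arrays for 8 genes and lies below the control mean for every gene but Sqstm1 and Trim55.

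Set against the control mean, the 3 MerCreMer 4 tamoxifen arrays differed in pattern. Replicate 3 was the furthest down for Trim63 (−1.13), Map1lc3b (−0.91), Fbxo32 (−0.90) and Foxo3 (−0.78). Replicate 1 was low for Foxo3 (−0.64) and Trim55 (−0.32) and high for Sqstm1 (0.43) and Trim54 (0.39). Replicate 2 was highest for Sqstm1 (0.71) and Fbxo32 (0.39) and near the controls for Foxo3 (−0.01). For Trim63 and Sqstm1 alone did all 3 arrays lie on 1 side of all 3 controls.

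Markers of other cell types moved with these arrays. Of 13 macrophage markers tested, 13 were higher in the MerCreMer 4 tamoxifen group. Their summed level (log2) ran from 11.0 to 12.3 there, against 10.6 in the MerCreMer 4 control group and 10.5 to 10.9 over the other groups. Among the 13, Gpnmb and Fcgr1 had means of 4.15 and 4.85 with control, under the filter value of 5, and 6.60 and 5.98 with tamoxifen. Genes with such means can pass the filter through the tamoxifen arrays alone, so their calls are not independent of it. Ccr2 did not reach the filter. Of 13 cardiomyocyte markers, 4 were lower, led by Ryr2 and Pln, and their summed level ran from 15.5 to 15.9, against 15.9 in the MerCreMer 4 control group. The remaining cardiomyocyte markers did not pass the test. Of 6 skeletal muscle markers 3 were higher, led by Tnnt1 and Tnnt3, while Ckm and Atp2a1 had lower means with tamoxifen and did not pass. Tnnt3 too had a control mean under the filter value, 4.83, and a mean of 6.67 with tamoxifen. The skeletal muscle markers Myh1, Myh2, Myh4 and Mylpf did not reach the filter on low values. Of 9 endothelial markers 3 were lower, led by Erg and Cdh5. Of 9 fibroblast markers 0 passed in the limma fit, with 4 at an unadjusted p under 0.05. The T cell markers Cd3e, Cd3g, Cd3d, Cd4 and Cd8a and most neutrophil markers did not reach the filter on low values. Lcn2, the 1 neutrophil marker tested, was higher by 2.40 (limma adjusted p 0.00279), at 8.22, 5.02 and 8.18 with tamoxifen and 4.79, 4.69 and 4.74 with control. Of 4 atrial markers tested 1 was lower and the median change was −1.12. Myl7, an atrial myosin light chain, had a mean of 4.61 with tamoxifen and 8.38 with control, a change of −3.77 (limma adjusted p 0.0211). Nppa went the other way, with a mean of 11.69 with tamoxifen and 10.67 with control, and passed only at an unadjusted p under 0.05. The summed level of the 4 ran from 10.7 to 12.6 with tamoxifen and from 11.2 to 11.5 with control. In whole ventricle, fewer cells of a type and less RNA per cell cannot be told apart, and the part of these shifts in the values of the 10 genes was not tested.

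A single tamoxifen injection in MerCreMer mice called none of the 10 genes in the limma fit, where 0.00878% of all genes, 1 gene, were called. At an unadjusted p under 0.05 there were 0 of the 10 and 380 of all genes. The changes ran from −0.06 for Fbxo32 to 0.14 for Trim55. Sqstm1 read 10.43, 10.30 and 10.33 with tamoxifen and 10.16, 10.29 and 10.37 with control, an overlap, and its change of 0.08 had a 95% interval from −0.15 to 0.31. Trim63 read 8.92, 8.97 and 8.89 against 8.78, 8.88 and 8.91, and its change of 0.07 had an interval from −0.32 to 0.46. Only for Trim55 did the groups not overlap, as for 10.4% of all genes.

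Wild-type mice given 4 tamoxifen injections also showed no call among the 10 genes, and 0% of all genes tested were called. The unadjusted p was under 0.05 for 0 of the 10 and for 295 of all genes. Changes ran from −0.16 for Trim63 to 0.12 for Bnip3. Sqstm1 was 10.27, 10.25 and 10.23 with tamoxifen and from 10.24 to 10.47 with a median of 10.37 in the controls, and its change of −0.13 had a 95% interval from −0.33 to 0.07. Foxo3 was 8.15, 8.27 and 8.19 with tamoxifen and from 8.09 to 8.50 with a median of 8.28 in the controls. The wild-type interval of Sqstm1 does not reach the 0.45 measured in MerCreMer ventricle. Trim54 alone did not overlap, at 8.98, 9.13 and 9.11 against 9.13 to 9.24, and 3.42% of all genes did not.

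**Figure D3:**
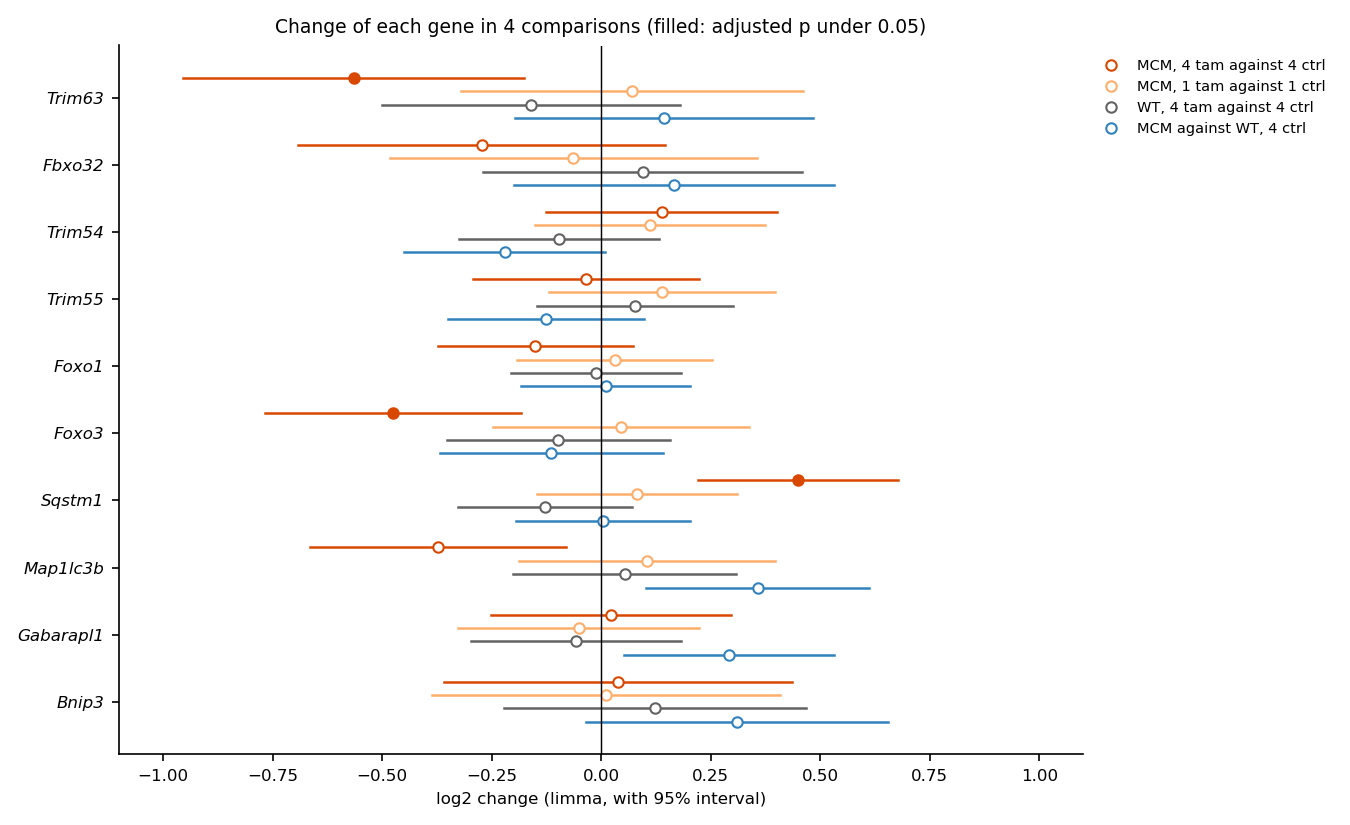
log2 change of each gene (horizontal axis, limma estimate with 95% interval) in 4 comparisons, with filled points where the adjusted p was under 0.05. Only Trim63, Foxo3 and Sqstm1 have a filled point, each in MerCreMer mice after 4 tamoxifen injections; the blue points of MerCreMer against wild-type controls lie to the right of 0 for Map1lc3b (0.36) and Gabarapl1 (0.29) with intervals that exclude 0, but these did not pass after adjustment.

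Whether the response to 4 tamoxifen injections differed between genotypes was tested as a difference of the 2 changes. It was called for 1 of the 10 genes, beside 7.98% of all genes tested (4.45% higher and 3.53% lower). For Sqstm1 the MerCreMer change exceeded the wild-type change by 0.58 (SE 0.144; limma adjusted p 0.0201), with a 95% interval from 0.27 to 0.88. The call was kept in 8 of 12 other settings. The adjusted p was 0.155 on female arrays alone, 0.0530 when only the arrays compared were fitted, 0.0562 with weights by group, and 0.0550, 0.0587 and 0.0525 without MerCreMer control replicate 1, MerCreMer control replicate 2 and wild-type tamoxifen replicate 3. For Trim63 the difference was −0.41 (SE 0.246; adjusted p 0.324) and for Foxo3 −0.38 (SE 0.184; adjusted p 0.213). The calls of Trim63 and Foxo3 in MerCreMer mice were therefore not shown to differ from the wild-type values.

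The change after 4 injections did not differ from that after 1 injection in MerCreMer mice for any of the 10 genes after adjustment in the limma fit, where 5.78% of all genes were called, 2.78% higher and 3% lower. At an unadjusted p under 0.05 there were 4: Foxo3 with a difference of −0.52, Map1lc3b with −0.48, Trim63 with −0.64 and Sqstm1 with 0.37. The smallest adjusted p was 0.123, for Foxo3. The 2 differences of changes share the MerCreMer 4 injection arrays with each other and with the change itself.

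Genotype alone, compared after 4 control injections, gave no call among the 10 genes in the limma fit, beside 0.676% of all genes tested (0.545% higher and 0.132% lower), and 2 of the 10 had an unadjusted p under 0.05. Map1lc3b read 9.91, 9.83 and 9.85 on the MerCreMer control arrays and from 9.43 to 9.72 with a median of 9.50 on the 6 wild-type control arrays, and the groups did not overlap. That held for 2 of the 10 genes and 12.5% of all genes. The difference of 0.36 (SE 0.121) had an adjusted p of 0.158. It passed when only the arrays compared were fitted (0.35, adjusted p 0.0252), with weights by group (0.35, 0.0121), with weights by array (0.36, 0.00133) and without MerCreMer tamoxifen replicate 3 (0.35, 0.0074), all settings in which the widely spread arrays count less. Those settings called 2.46%, 5.56%, 10.3% and 4.14% of all genes, in that order, against 0.676% as reported. This comparison shares its MerCreMer controls with the 4 tamoxifen comparison. Atrial markers moved with it: 0 of the 4 tested passed in the limma fit, but 2 had an unadjusted p under 0.05, and the median difference was 1.43. Myl7 had a mean of 8.38 in MerCreMer and 5.02 in wild-type controls (adjusted p 0.119), and Myl4 9.22 and 6.51 (adjusted p 0.0994). None of the 13 macrophage or 13 cardiomyocyte markers was called, with 1 of each at an unadjusted p under 0.05. The part of the atrial markers in the differences of Map1lc3b, Gabarapl1 and Trim54 was not tested.

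Gabarapl1, the relative of LC3B, read 8.15, 8.01 and 8.30 in MerCreMer controls and from 7.60 to 8.04 with a median of 7.89 in wild-type controls. The groups overlapped slightly, and the difference was 0.29 (SE 0.114; limma adjusted p 0.229). Trim54 lay the other way, at 9.05, 8.81 and 8.98 in MerCreMer and 9.13 to 9.24 in wild-type controls, with no overlap and a difference of −0.22 (SE 0.109; limma adjusted p 0.353). With weights by array, Gabarapl1 and Trim54 passed as well, but 10.3% of all genes were called there, against 0.676% as reported. Between MerCreMer mice given 4 and 1 control injections none of the 10 genes was called by limma, 0 had an unadjusted p under 0.05, and 0% of all genes were called. The groups did not overlap for Trim63 and Map1lc3b, both higher after 4, and for 9.79% of all genes; the atrial markers had a median difference of 1.18 there, whose part in these values was not tested.

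A second probe set was annotated to Map1lc3b alone and to Bnip3 alone. For Map1lc3b it was dimmer (mean 6.81 against 9.63) and gave a change of −0.65 (SE 0.310; limma adjusted p 0.138) after 4 tamoxifen injections in MerCreMer mice and a genotype difference of 0.99 (SE 0.270; adjusted p 0.0919), the same signs as the first. For Bnip3 it gave −0.11 (SE 0.156; adjusted p 0.659), where the first gave 0.04. Which locus or near-identical copy each probe set measures is not known here, so the values of both genes are uncertain in that respect.

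Around the 10 genes, 167 other genes were grouped by role, of which 154 were tested. After 4 tamoxifen injections in MerCreMer mice 17 were higher and 25 lower, a share of 27.3% beside 23.3% of all genes tested. The 17 and 25 became 17 and 17 without MerCreMer tamoxifen replicate 3, 16 and 38 without replicate 1 and 20 and 43 without replicate 2. Without MerCreMer control replicate 1 they were 9 and 20, and without control replicate 3 they were 11 and 18. With arrays centred on their medians they were 13 and 35. When only the 6 arrays compared were fitted, Klhl40 alone was called.

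The counts of each group below stand beside 13.9% of all genes higher and 9.41% lower. Among 25 other muscle ubiquitin ligase and atrophy genes, 4 were higher and 5 lower, with a median change of −0.12. Klhl40, which encodes a muscle adaptor of cullin-3 ligases, was 7.93, 7.64 and 7.47 with tamoxifen and 6.08, 6.04 and 5.76 with control, with no overlap. It rose by 1.72 (limma adjusted p 1.59e-08), and it was called in all 33 settings tried. Mdm2, the p53 ligase, rose by 0.34. Fbxo40, a muscle F-box protein, fell by 1.14 (limma adjusted p 6.14e-05), from 9.29, 9.14 and 9.12 to 8.27, 8.36 and 7.50. Klhl31, another muscle Kelch protein, fell by 0.64 (limma adjusted p 6.71e-05). The changes of Klhl40, Fbxo40 and Klhl31 were larger and had smaller adjusted p-values than those of any of the 10 genes.

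Known FoxO target genes had 6 of 19 lower and 0 higher, with 9 lower and 0 higher at an unadjusted p under 0.05, which 4220 of the 11384 genes tested had in either direction. Their median change was −0.29 against 0.01 for all genes. Klf15, a metabolic transcription factor that glucocorticoids also induce, fell by 1.07 (limma adjusted p 0.000484), and Pik3ip1, an inhibitor of PI3 kinase, fell by 0.94 (limma adjusted p 0.00795). Neither gene overlapped between the groups, and Klf15 read 7.01, 7.15 and 6.31 with tamoxifen and 7.81, 7.86 and 8.01 with control. The 6 became 8 without tamoxifen replicate 1 or 2, 4 without tamoxifen replicate 3, 4 without control replicate 1 or 2, and 3 without control replicate 3. The same MerCreMer 4 control arrays were higher than wild-type controls for this list, with a median difference of 0.22 against 0.03 for all genes. In that comparison 1 of the 19 was called higher, beside 0.545% of all genes, and 0 lower. At an unadjusted p under 0.05, 4 were higher and 0 lower, beside 1694 of all genes in either direction.

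The inputs to FoxO split both ways, with 3 of 23 insulin, AKT and mTOR genes higher and 4 lower. Prkaa1, a catalytic subunit of AMP-activated kinase, rose by 0.37 and Akt1 by 0.39. Insr, the insulin receptor, fell by 0.55 and Pik3r1, the regulatory subunit of PI3 kinase, by 0.53. Of 11 glucocorticoid, myostatin and activin genes, 3 were higher and 1 lower. Fkbp5, a glucocorticoid-induced chaperone, rose by 1.11 and Fstl3, which binds activin and myostatin, by 0.92, while Nr3c1, the glucocorticoid receptor, fell by 0.36. The limma adjusted p of these named genes lay between 0.00238 and 0.0126.

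Most autophagy genes did not pass the test. Of 18 ULK and class III PI3 kinase genes 3 were higher and 1 lower: Vmp1, an endoplasmic reticulum protein of autophagosome formation, rose by 0.57 and Atg2b, a lipid transfer protein, by 0.27, while Wipi1 fell by 0.49. Of 13 genes of LC3 conjugation and the LC3 and GABARAP family, Gabarap rose by 0.27 and Atg10, an enzyme that couples ATG12 to ATG5, fell by 0.71. Of 9 other autophagy receptors 0 passed in the limma fit, with 2 at an unadjusted p under 0.05, and the smallest p belonged to Calcoco1 (−0.41; adjusted p 0.0919). Sqstm1 was thus the receptor that was called, but a difference from the other receptors was not tested.

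Most mitophagy and lysosome genes did not pass either. Of 9 mitophagy genes 3 were lower and 0 higher, and at an unadjusted p under 0.05, 4 were lower and 0 higher. Their median was −0.22, or −0.02 without tamoxifen replicate 3. Pink1, the kinase that recruits Parkin, fell by 0.73 (limma adjusted p 0.0117) and Phb2, an inner membrane receptor, by 0.28 (limma adjusted p 0.0108). The lists overlap, and Pink1 is also counted among the 6 lower FoxO targets. Of 12 genes of the TFEB family and of fusion with the lysosome 2 were higher and 1 lower. Plekhm1 rose by 0.24 and Vamp8, a fusion SNARE, by 0.37, and Mitf, a relative of TFEB, fell by 1.15 (limma adjusted p 1.66e-05). Among 17 substrates and sarcomere partners of the ligases 1 was higher and 4 lower: Des, which encodes desmin, rose by 0.46, and Fhl2 and Ttn, which encodes titin, fell by 0.96 and 0.43.

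**Figure D4:**
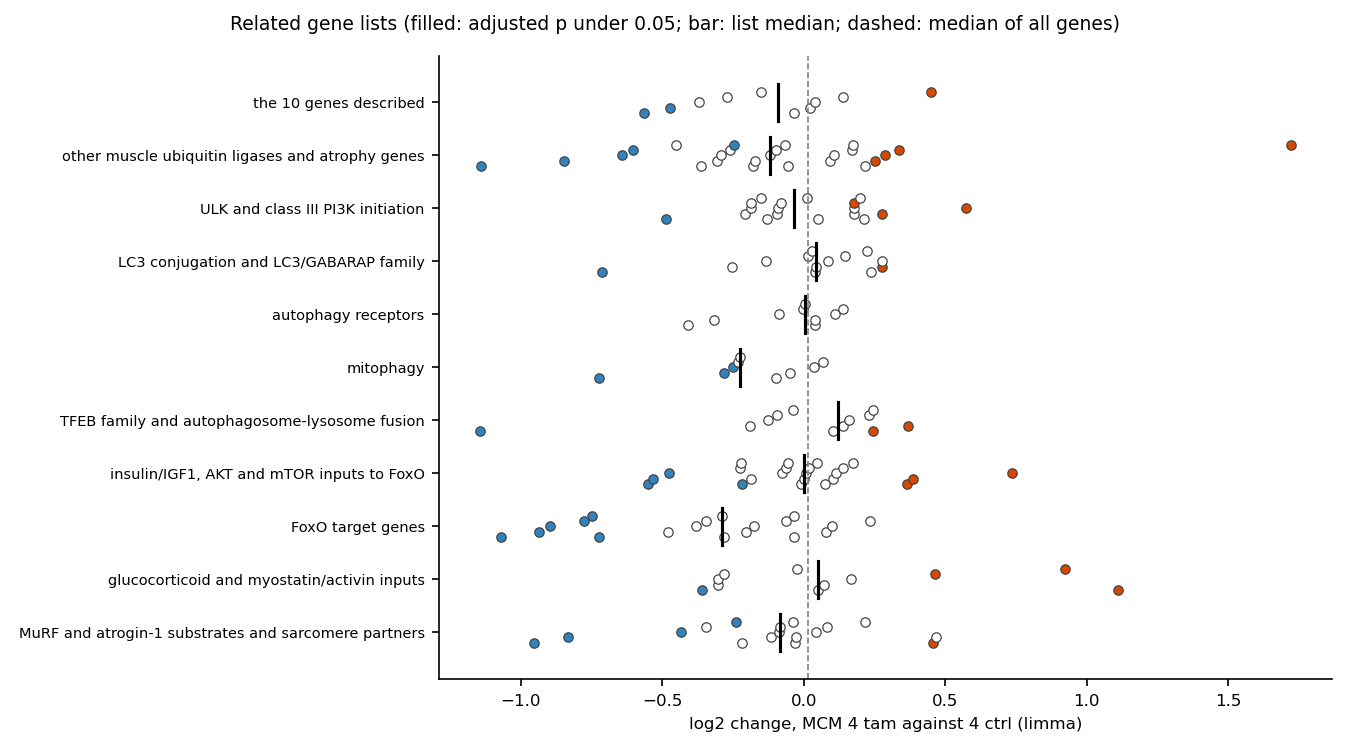
log2 change (horizontal axis, limma) of every tested gene of the 10 genes described and of 10 related lists, in MerCreMer mice after 4 tamoxifen against 4 control injections. Filled points passed at an adjusted p under 0.05 (orange higher, blue lower), black bars are list medians and the dashed line is the median of all genes, 0.01; the FoxO targets have the lowest median, −0.29, and Klhl40 lies furthest right at 1.72.

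In the other comparisons few of the 154 genes were called by limma. None passed after 1 tamoxifen injection (1 at an unadjusted p under 0.05), in wild-type mice (4) or between MerCreMer mice given 4 and 1 control injections (1). MerCreMer exceeded wild-type controls for Irs1, an insulin receptor substrate (0.41, limma adjusted p 0.0237), and Cited2 (0.44, 0.0486), a FoxO target. That is 1.30% of the 154 genes, beside 0.676% of all genes tested. The change after 4 tamoxifen injections differed between genotypes for 3 genes upward and 12 downward, and between 4 and 1 injections for 3 upward and 7 downward. These were 9.74% and 6.49% of the 154 genes, near the 7.98% and 5.78% of all genes tested. Klhl40 had the smallest p in both differences, at 1.93 (limma adjusted p 3.34e-07) and 1.56 (1.30e-05). Fhl2 had the smallest p of the downward genes, at −0.96 (5.08e-05) and −1.02 (4.92e-05).

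**Figure D5:**
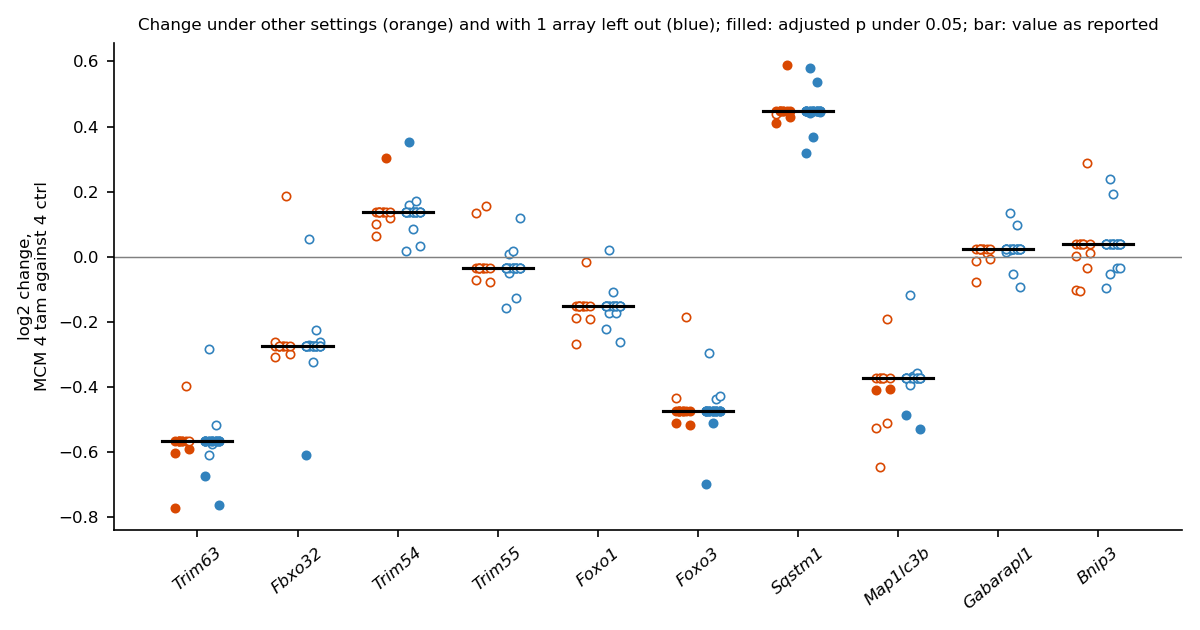
log2 change of each gene in MerCreMer mice after 4 tamoxifen against 4 control injections (vertical axis) as reported (black bar), under other settings (orange) and with 1 array left out (blue), filled where the adjusted p was under 0.05. Sqstm1 is filled with every array left out (0.32 to 0.58), while Trim63 (−0.76 to −0.28) and Foxo3 (−0.70 to −0.29) each have open points, and no gene that was called as reported changes sign.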

How the data were processed

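Total RNA of left ventricle was labelled with biotin and hybridised, per the labels' protocols. The deposited values are on a log2 scale, and RMA is the only tool that the submitters' processing notes name, without a version. RMA corrects background, quantile normalises arrays and summarises probes, which hides any change common to most genes. Values were used as deposited. The platform annotation gave 1 gene for 21640 of 34760 probe sets, several for 1321 and none for 11799. Genes with a log2 value of at least 5 on at least 3 arrays were tested with limma 3.58.1 in R 4.3.3 (lmFit and eBayes, 14 residual and 3.98 prior degrees of freedom) and called at a Benjamini-Hochberg adjusted p under 0.05. The script was tested on simulated data. The members and gene lists were chosen with earlier results of these data known. Of each list, up to 2 called genes per direction with the smallest p are named. No label gives a batch or scan date. The number of arrays limits the precision. Alternatives varied the sex term, the arrays fitted, weights, scaling, filter, probe set and each array, and the second probe sets of Map1lc3b and Bnip3 were chosen after seeing the data.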

Additional observations from a re-analysis of the deposited data

Results flagged for a closer look

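Among the 6 arrays of wild-type mice given 4 control injections, replicate 3 lay apart from the other 5 for 3 of the 10 genes. Trim63 was 8.44 there, with the next value at 8.89. Map1lc3b was 9.72, with the next at 9.52, and Bnip3 was 9.65, with the next at 8.93. Chance sets about 1 in 20 groups apart in this way for a single gene. Values of different genes on 1 array are not independent, so that rate cannot be set against 3 of the 10 genes. The share over all genes is not given here. The change of Sqstm1 after 4 tamoxifen injections differed between genotypes by 0.58 in the limma fit.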

How the results depend on the processing

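Among 2310 values of the 10 genes under other settings, 0 called values reversed, 27 lost and 25 gained a call, and 91 uncalled values differed in sign from the reported one. In MerCreMer mice after 4 tamoxifen injections the 3 calls became 0 with only the arrays compared or when groups were weighted by their own variance. Those settings called 0.158% and 8.42% of all genes. The calls became 1 with female arrays only (Trim63, beside 13.2%) and 2 without the filter on low values (Foxo3 and Sqstm1, beside 11.3%). With 1 array left out they ranged from 1 to 5. The 1 was Sqstm1, without control replicate 1 or 3, where 15% and 14.5% of all genes were called. The 5 came without tamoxifen replicate 2, where 33.8% of all genes were called. With array weights the calls were 2, Sqstm1 and Trim54, beside 13.9%. For the difference between genotypes the 1 call became 0 with only the arrays compared, with group weights or with female arrays only. Those settings called 4.64%, 4.54% and 1.69% of all genes, against 7.98% as reported. It became 2 with array weights, beside 8.89%. With 1 array left out the calls ranged from 0 to 4. They were 0 without control replicate 1 or 2 (4.43% and 5.56% of all genes) or wild-type tamoxifen replicate 3 (4.5%). They were 4 without tamoxifen replicate 2, where 19.7% of all genes were called. For MerCreMer against wild-type controls the 0 calls became 1 with only the arrays compared (2.46% of all genes) or group weights (5.56%). They became 3 with array weights (10.3%), against 0.676% of all genes as reported. With 1 array left out they ranged from 0 to 1, the latter without tamoxifen replicate 3 (4.14%). For the difference between 4 and 1 injections the 0 calls became 1 with array weights (6.16% of all genes, against 5.78% as reported). With 1 array left out they ranged from 0 to 2, the latter without tamoxifen replicate 1 (12.1%) or 2 (17.2%). After 1 tamoxifen injection, in wild-type mice and between control injections the 0 calls held in every setting. The cause of these shifts was not tested.

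With the replicate number as a block in place of sex, the call for the difference between genotypes became 0, with an adjusted p of 0.112 for Sqstm1, and in the MerCreMer 4 tamoxifen comparison that of Trim63 was lost (0.0531). Whether equal numbers pair the samples is not given in the labels. Same-numbered deviations correlated from −0.037 to 0.112 in the MerCreMer 4 tamoxifen comparison. They correlated from 0.070 to 0.277 between the MerCreMer 1 injection groups and from −0.201 to 0.276 between the wild-type groups. With 3 such pairs in each comparison, these values cannot show whether the samples were paired. Over all genes the 2654 calls of that comparison became 18 with only the arrays compared, 958 with group weights, 1578 with array weights, 1888 with the block and 1502 with female arrays only. The 909 calls for the difference between genotypes ranged from 192 to 1012 over such settings, the 658 for 4 against 1 injections from 113 to 731 and the 77 between control groups from 3 to 1175. Most groups had 3 arrays, which sets the width of the intervals given.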
